A study of Homo sapiens with 12 samples.

Results

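The contactins and contactin-associated proteins described here are 8 human genes, CNTN1, CNTN3, CNTN4, CNTN5, CNTN6, CNTNAP2, CNTNAP4 and CNTNAP5, of 19974 protein-coding genes on the autosomes and X. They were chosen by name from the family, with earlier results of these data known. Each RefSeq gene body was laid over lists of lamina-associated domains (LADs). These are parts of the genome that touch the nuclear lamina, the protein mesh under the nuclear envelope. The other 5 protein-coding genes of the family, CNTN2, CNTNAP1, CNTNAP3, CNTNAP3B and CNTNAP3C, are given for comparison near the end. The LADs come from H9, an established human embryonic stem cell line, grown without further treatment either in RSeT medium (naive) or in mTeSR medium (primed). Contact with the lamina was read by pA-DamID, in which an antibody against lamin B1 (LMNB1) brings a fusion of protein A and Dam methylase to the lamina and the methylated DNA is sequenced. Each state has 3 LMNB1-dam libraries and 3 Dam-only control libraries. The deposited files hold 1 list of LADs for the naive and 1 for the primed state, with a start and an end for each LAD and no signal. The replicate libraries cannot be told apart in these lists, so no value below has a replicate error and no difference between the states was tested. The naive list holds 9178 LADs over 1438 Mb and the primed list 5671 LADs over 1319 Mb, all built from 10 kb windows, and the read depth behind a window is unknown.

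Contactins are adhesion molecules of the immunoglobulin superfamily that are held on the neuronal surface by a lipid anchor. The contactin-associated proteins, also called Caspr proteins, are transmembrane relatives of the neurexins that pair with contactins along myelinated axons and at synapses. Genes of this kind serve neurons, and some are among the longest in the genome. Late-replicating DNA with long neuronal genes is a familiar part of LADs in many cell types. The lists show position at the lamina and carry no measure of expression.

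All 8 gene bodies lay in LADs in both states, and the lists differed inside them by a few windows. A gene was counted in LADs where at least 50% of its body was covered, which held for 8 of 8 in the naive and 8 of 8 in the primed list. Among all protein-coding genes 18.9% passed the same rule in naive and 17.3% in primed.  These are long genes, from 283 kb for CNTNAP4 to 2.30 Mb for CNTNAP2, and among the 771 protein-coding genes of 300 kb or longer the shares were 60.4% in naive and 52.9% in primed. CNTNAP4 falls short of 300 kb, and among the 998 genes of 250 kb or longer, a limit added after the files were seen, they were 58.2% in naive and 50.9% in primed. With a minimum of 90% of the body the count was again 8 of 8 in each list, where 12.1% of all genes, 40.2% of the 771 long genes and 38.2% of the 998 passed in both states. The choice of these 8 genes out of the family was made with earlier results of these data known, so the counts describe them and carry no evidence about the family.

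Naive coverage was equal to or slightly below primed coverage in each of the 8 genes. The 8 bodies add up to 6.82 Mb, of which 96.6% was covered in naive and 97.9% in primed. Of this DNA, 93.2 kb lay in primed LADs only and 0 kb in naive LADs only, while 141 kb was outside the LADs of both. The naive list covered 3 of the genes from end to end and the primed list 6, against 12.2% of all genes in naive and 13.3% in primed. Of the 771 long genes 21.8% were covered end to end in naive and 31.5% in primed, and of the 998 genes 22.6% in naive and 31.4% in primed. Naive minus primed coverage was negative in 5 genes and 0 in 3, with a median of -1.08 percentage points. In the 6 genes with full primed cover this difference could not be positive. The same median was 0 over all protein-coding genes and 0 over the long ones. Among the 392 genes of 300 kb or longer in LADs of both states, naive coverage was lower in 41.3% and higher in 21.9%. Lower naive coverage was thus the commoner direction in these 392 genes. Over all 771 genes of that length the median coverage was 87.0% in naive and 68.7% in primed. None of the 8 reached a difference of 10 points, a size that 6.84% of all genes, 20.6% of the 771 and 19.8% of the 998 reached toward naive. Toward primed the shares were 4.09% of all genes, 4.93% of the 771 and 5.61% of the 998.

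**Figure D1:**
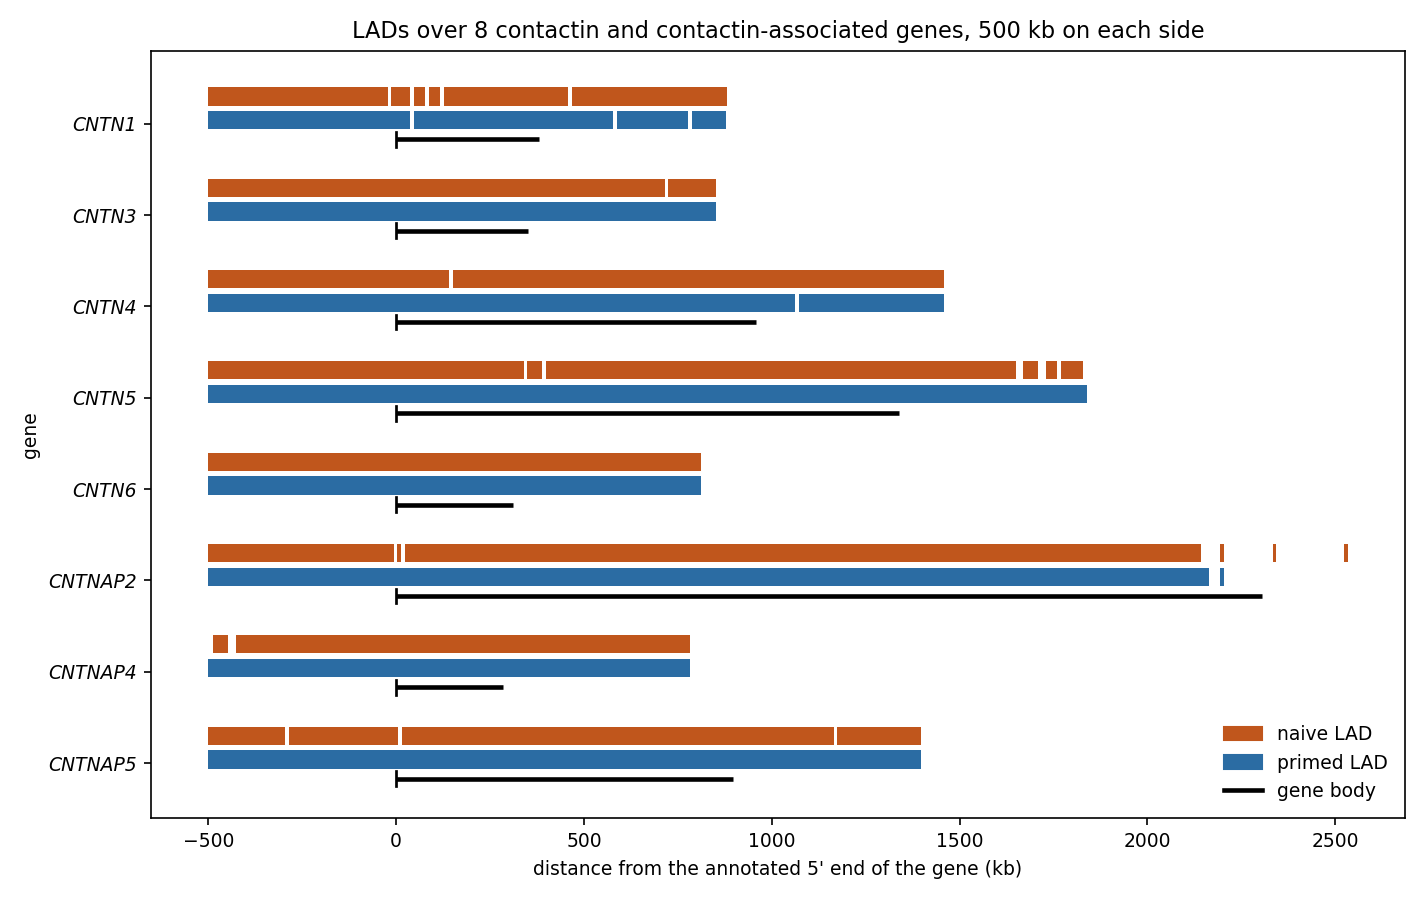
LADs over the 8 gene bodies and 500 kb on each side, drawn along the strand of each gene. The horizontal axis is the distance from the annotated 5′ end in kb, orange bars are naive LADs, blue bars primed LADs and black bars gene bodies. White breaks inside the bars are windows outside LADs, and all but the end of CNTNAP2 is nearly filled in both states.

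Of the contactins, CNTN6 and CNTN4 are neighbours near the tip of the short arm of chromosome 3. CNTN6, known in mice for roles in cerebellar and motor circuits, spans 311 kb (1093024 to 1404217, plus strand) and was 100% covered in naive and 100% covered in primed. CNTN4, an axon guidance molecule of the olfactory and visual systems in mice, spans 959 kb (2098866 to 3057959, plus strand) and was 98.96% covered in naive and 100% covered in primed. The difference was a single naive gap from 2240001 to 2250000, 141 kb inside the gene. This window cut the naive cover of the region into a LAD of 2.22 Mb, which begins at position 20001 of the chromosome and holds CNTN6 and CHL1, and one of 1.54 Mb. In primed 1 LAD of 3.15 Mb ran over CHL1, CNTN6 and CNTN4 together with the interleukin receptor gene IL5RA. The 500 kb before and after CNTN6 were fully covered in both lists. The 500 kb after CNTN4 were 100% covered in naive and 98% covered in primed.

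CNTN3, a contactin of several brain regions that binds the receptor phosphatase PTPRG, lies farther along the same chromosome at 74262568 to 74614659 on the minus strand. Its 352 kb were 100% covered in naive and 100% covered in primed, with no break. The LAD around it was 1.39 Mb long in naive and 1.87 Mb in primed and held no other whole protein-coding gene in either.

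CNTN5, a contactin known from auditory neurons of the mouse, spans 1338 kb of chromosome 11 (99020949 to 100358885, plus strand) and was 98.5% covered in naive and 100% covered in primed. Both naive gaps were single windows, at 99360001 to 99370000 and 99410001 to 99420000, which began 339 and 389 kb into the gene and left a piece of 40 kb between them. In naive the LADs on either side were 2.92 and 1.25 Mb long. In primed 1 LAD of 5.68 Mb held the gene and 7 others, among them the progesterone receptor gene PGR and the channel gene TRPC6. Beyond the end of CNTN5, 88.2% of the next 500 kb was covered in naive and 100% in primed.

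CNTN1, the partner of CNTNAP1 at the junctions between axon and myelin beside the nodes of Ranvier, had the most gaps among the 8 in naive. It spans 380 kb of chromosome 12 (40692439 to 41072415, plus strand) and was 92.1% covered in naive and 97.4% covered in primed, a difference of -5.26 points that was the widest among the 8. Naive LADs entered it in 4 pieces with 3 gaps and primed LADs in 2 pieces with 1 gap. The window from 40730001 to 40740000 was free in both lists. Those from 40770001 to 40780000 and from 40810001 to 40820000 were free in naive alone. Thus the start of the gene lay in a naive LAD of 50 kb, followed by 2 pieces of 30 kb, while in primed a LAD of 1200 kb reached the start and also held LRRK2, a kinase gene of Parkinson disease. CNTN1 is the gene for which the treatment of small LADs matters most: leaving out LADs shorter than 100 kb took its naive coverage to 66.4% and the difference to -30.9 points, and joining LADs less than 50 kb apart made both states 100%.

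Of the contactin-associated genes, CNTNAP2 is the only one of the 8 whose 3′ end lay outside LADs, and it did so in both states. It encodes Caspr2, which gathers voltage-gated potassium channels beside the nodes, and is among the longest human genes at 2.30 Mb of chromosome 7 (146116801 to 148420998, plus strand). It was 92.9% covered in naive and 94.3% covered in primed. Cover was continuous over most of the body, with a piece of 2120 kb in naive and 2163 kb in primed. It ended at 148260000 in naive and at 148280000 in primed, so that the border lay 2143 kb into the gene in naive and 2163 kb in primed. After a last isolated window (148310001 to 148320000) that both lists share, the final 101 kb of the gene were free of LADs in both.

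The DNA beyond the end of CNTNAP2 was nearly free of LADs. In the 500 kb after the gene 4% was covered in naive, as 2 isolated windows, and 0% in primed, while the 500 kb before the gene were 98.6% covered in naive and 100% covered in primed. From 148320001 the naive list had free stretches of 130, 180 and 1300 kb with single windows between them. The free stretch of 1300 kb ended at 149950000. The primed list had no LAD from 148320001 for 4.90 Mb. The first protein-coding gene there is C7orf33, followed by CUL1, which encodes a ubiquitin ligase scaffold, and EZH2, which encodes the catalytic subunit of the Polycomb complex PRC2 and begins 386 kb after CNTNAP2. CUL1 and EZH2 are named after their values were seen. Each of these 3 genes was 0% covered in naive and 0% covered in primed.

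**Figure D2:**
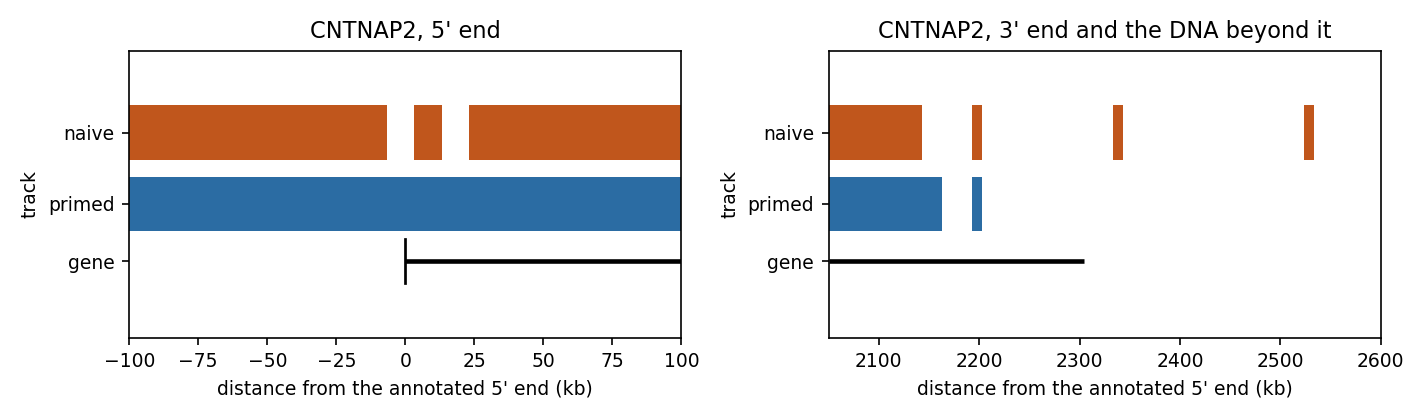
CNTNAP2 at both ends. The horizontal axis is the distance from the annotated 5′ end in kb, with naive LADs in orange, primed LADs in blue and the gene in black. On the left 2 naive windows are free at and just after the start, inside continuous primed cover. On the right the cover stops 2143 kb into the gene in naive and 2163 kb in primed, ahead of the end of the gene.

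CNTNAP4 was unbroken in both lists and CNTNAP5 in primed. CNTNAP5, a Caspr gene expressed in brain, spans 896 kb of chromosome 2 (124025287 to 124921219, plus strand) and was 98.9% covered in naive and 100% covered in primed. Its 1 naive gap ran from 124030001 to 124040000 and began 4.71 kb after the start of the gene. In primed the gene lay in a LAD of 4.69 Mb, and in naive it was split between LADs of 290 kb and 1.15 Mb. CNTNAP4, which acts at synapses of inhibitory interneurons in mice, spans 283 kb of chromosome 16 (76277401 to 76560757, plus strand). It was 100% covered in naive and 100% covered in primed. It was the only one of the 8 whose LAD was longer in naive, at 2.09 Mb against 1.55 Mb in primed.

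Over the 8 genes the longest LAD that reached into the gene was longer in primed in 7 and longer in naive in 1. CNTN4 and CNTN6 share these LADs, so the 8 genes are not 8 separate observations. The median of that longest LAD was 2.11 Mb in naive and 3.15 Mb in primed. The other 385 long genes in LADs of both states, with medians of 1.29 Mb in naive and 2.42 Mb in primed, had the longer LAD in primed in 74.8% of cases. Once neighbouring LADs separated by under 50 kb were merged, the 8 genes had the longer LAD in primed in 5 cases and in naive in 3, and among the 385 others primed was longer in 46.2%.

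The start sites were inside LADs in 7 of the 8 genes in naive and in all 8 in primed, taking the annotated 5′ end of each gene. Among protein-coding genes with a known strand 17.8% of starts were covered in naive and 17.4% in primed. Among those of 300 kb or longer the shares were 50.7% in naive and 48.2% in primed. The exception was CNTNAP2. Its start at 146116801 lay in a naive gap of 1 window, from 146110001 to 146120000, and 1767 kb from the nearest edge of its LAD in primed. A further naive gap followed from 146130001 to 146140000. After merging across breaks below 50 kb, the start of CNTNAP2 was covered in naive too, giving 8 of 8. Without LADs shorter than 100 kb the naive count was 6. It was also 6 when the start window and its 2 neighbours all had to be covered. The primed count stayed at 8 in each of these settings. The start of CNTNAP5 was inside a naive LAD but only 4.71 kb from its edge, against 2015 kb in primed. The annotated start of CNTN1 was 12.4 kb from the edge of its LAD in naive and 37.6 kb in primed. For this gene the promoter table gives start sites at 40828184 and 40908357, inside the annotated gene. The first was 8.18 kb from the edge of a naive LAD and 88.2 kb from the edge of a primed LAD. The other annotated starts, those of CNTN3, CNTN4, CNTN5, CNTN6 and CNTNAP4, were at least 141 kb from a LAD edge in naive and at least 607 kb in primed.

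The promoter sequences show what kinds of start site lie in these LADs. The 250 bases before a start are printed for CNTNAP2 and CNTNAP5, whose starts lie in or beside a naive gap. They are also printed for CNTN4 and CNTN6, whose annotated starts share a LAD in both lists and differ in composition. Sequences are from RefSeq on GRCh38.p14, written 5′ to 3′ on the plus strand, and capitals mark the dinucleotide CG.
CNTNAP2, chr7:146116551-146116800: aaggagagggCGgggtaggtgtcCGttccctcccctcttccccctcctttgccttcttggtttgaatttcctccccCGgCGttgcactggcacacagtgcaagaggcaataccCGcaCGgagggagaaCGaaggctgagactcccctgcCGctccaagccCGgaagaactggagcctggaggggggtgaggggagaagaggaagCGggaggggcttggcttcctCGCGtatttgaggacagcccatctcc
CNTNAP5, chr2:124025037-124025286: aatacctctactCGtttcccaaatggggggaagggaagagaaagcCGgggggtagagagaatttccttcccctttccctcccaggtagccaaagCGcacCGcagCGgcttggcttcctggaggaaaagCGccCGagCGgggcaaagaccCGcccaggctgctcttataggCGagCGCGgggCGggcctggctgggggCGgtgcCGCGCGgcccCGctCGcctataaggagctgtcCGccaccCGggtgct
CNTN4 first start, chr3:2098616-2098865: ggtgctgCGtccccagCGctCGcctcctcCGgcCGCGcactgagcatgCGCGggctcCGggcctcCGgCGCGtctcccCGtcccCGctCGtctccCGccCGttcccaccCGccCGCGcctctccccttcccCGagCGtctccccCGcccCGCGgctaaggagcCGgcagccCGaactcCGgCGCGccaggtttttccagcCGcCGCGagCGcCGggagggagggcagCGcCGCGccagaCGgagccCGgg
CNTN4 internal start, chr3:2891970-2892219: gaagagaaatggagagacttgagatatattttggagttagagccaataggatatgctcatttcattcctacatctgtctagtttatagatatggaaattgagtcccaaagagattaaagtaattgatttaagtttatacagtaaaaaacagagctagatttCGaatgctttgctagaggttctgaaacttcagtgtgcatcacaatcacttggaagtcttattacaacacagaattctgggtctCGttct
CNTN6, chr3:1092774-1093023: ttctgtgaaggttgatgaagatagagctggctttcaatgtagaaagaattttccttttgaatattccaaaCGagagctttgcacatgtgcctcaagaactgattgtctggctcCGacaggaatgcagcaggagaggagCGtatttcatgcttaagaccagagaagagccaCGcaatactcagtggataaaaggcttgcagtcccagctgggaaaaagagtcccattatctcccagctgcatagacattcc

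The 8 genes have 10 start sites in the promoter table, and their CG content ran from very high to almost none. The first start of CNTN4 had 40 CG dinucleotides in the 250 bases before it and CNTN3 had 38. CNTN5 had 26, CNTNAP5 21, CNTNAP4 13 and CNTNAP2 12. The first listed start of CNTN1 had 5, CNTN6 had 4, and the internal start of CNTN4 and the second start of CNTN1 had 2 each. The median was 8 over 3340 start sites of protein-coding genes in LADs of both states and 18 over 17412 start sites in LADs of neither. CNTN4 and CNTN3 thus had more CG than 98.8% and 97.7% of the start sites in LADs of both states. CNTN6 and the first start of CNTN4, with 4 and 40, lay in the same LAD in each list. The letters GATC, the site that Dam methylates and which reads the same on both strands, occurred in none of the 10 stretches, and in 34.2% of the 22132 such stretches of protein-coding genes. This says nothing of the GATC sites in the rest of each 10 kb window.

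**Figure D3:**
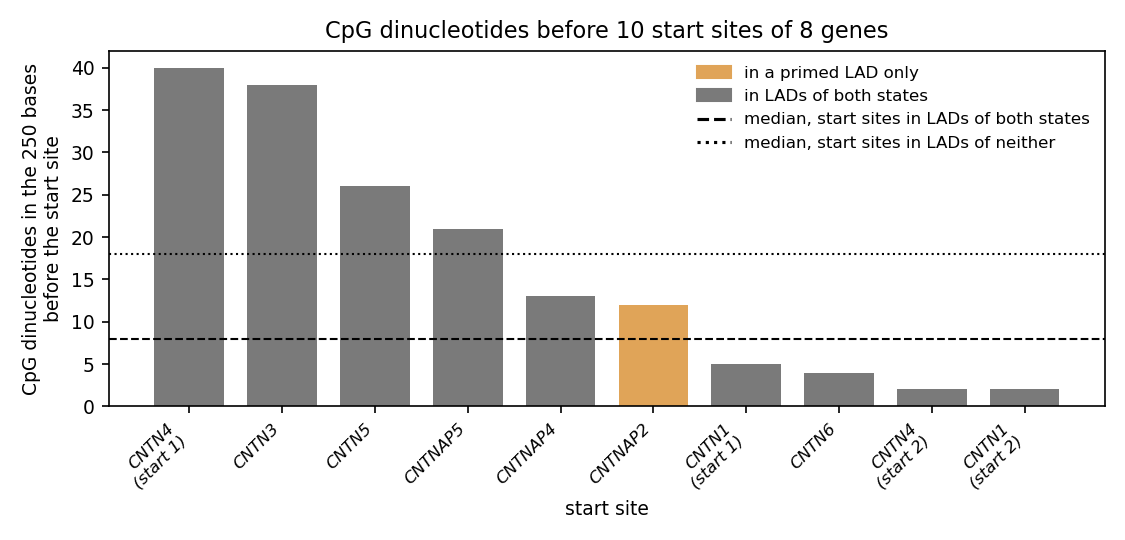
CG dinucleotides in the 250 bases before each of the 10 start sites. Bars are start sites ordered by count, gray where the start lies in LADs of both states and light orange for CNTNAP2, whose start lies in a primed LAD only. The dashed line is the median of start sites in LADs of both states (8) and the dotted line that of start sites in LADs of neither (18).

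The gaps inside the 8 genes were few, and most of those in naive lay toward the 5′ end. A gap is a free stretch with LAD on both sides inside the gene body. There were 9 in naive, 8 of them single windows, in 5 of the genes, and 2 in primed, 1 of them a single window, in CNTN1 and CNTNAP2. Of the 392 genes of 300 kb or longer in LADs of both states, 54.1% had a gap in naive and 35.7% in primed. Merging LADs across breaks below 50 kb left 1 gap in naive and 0 in primed, and dropping LADs shorter than 50 kb left 4 in naive and 1 in primed. Of the 9 naive gaps 7 were fully inside primed LADs, in gene bodies of which the primed list covered 97.9% of the summed length. The same count was not made for the other long genes. Per Mb of gene body there were 1.32 gaps in naive and 0.293 in primed. The 312 other long genes in LADs of both states and with a known strand had 2.30 gaps per Mb in naive and 1.90 in primed. Of their gaps, 79.6% in naive and 73.3% in primed were single windows. These genes and the 392 needed only 50% coverage in each list, while each of the 8 had at least 92.1%. The gap values of the 8 and of the other genes are therefore not matched for coverage. With each body cut into 3 equal parts, 8 of the 9 naive gaps had their midpoint in the part at the 5′ end, 0 in the middle part and 1, the 50 kb gap of CNTNAP2, in the part at the 3′ end. Of the 2 primed gaps 1 lay in the 5′ part and 1 in the 3′ part. In the 312 other genes the 5′ part held 38.8% of 451 naive gaps and 34.8% of 374 primed gaps. The 8 gaps come from 5 genes, and this division was chosen after their positions were seen. The 3 of them in CNTN1 lie after its annotated 5′ end but before both of its start sites in the promoter table.

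**Figure D4:**
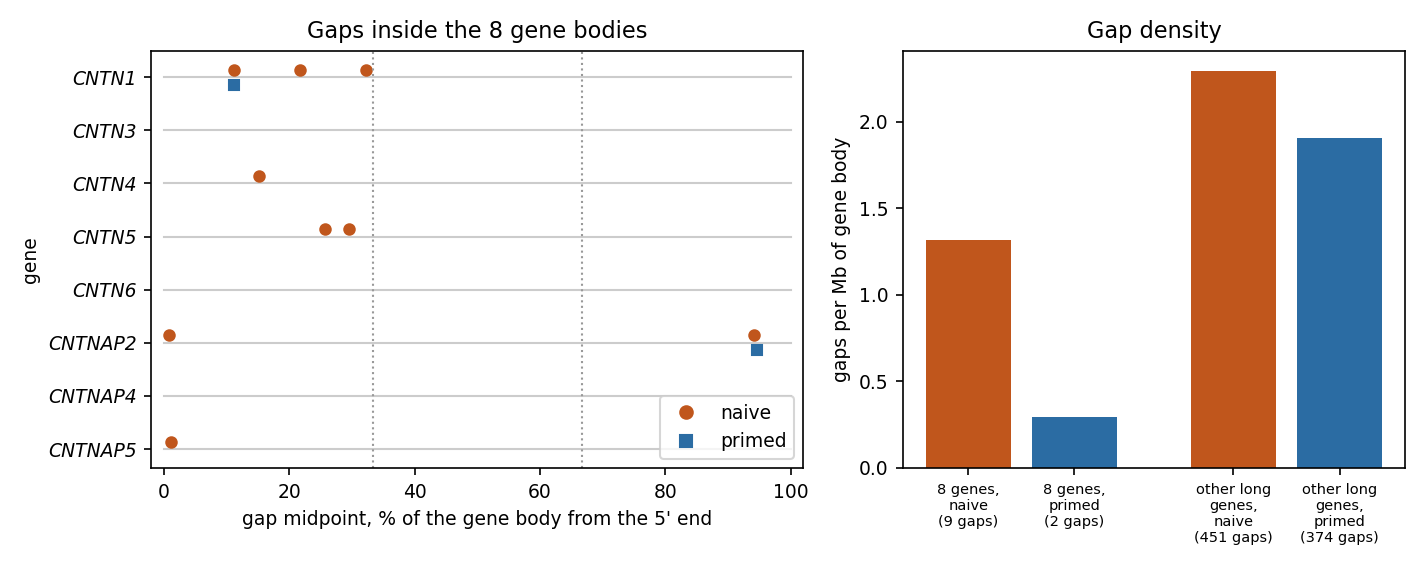
Gaps inside the gene bodies. The left panel gives the midpoint of each gap as a percentage of the gene body from the 5′ end, with orange circles for naive, blue squares for primed and dotted lines at the borders of 3 equal parts. The right panel gives gaps per Mb of gene body, 1.32 in naive and 0.293 in primed for the 8 genes. The values are 2.30 and 1.90 for the 312 other long genes in LADs of both states, which are not matched to the 8 for coverage.

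Likeness to other genes was measured for the 3 members with the widest difference between states. Each gene of 100 kb or longer was cut into 20 bins from its 5′ end, and the mean absolute difference in coverage was taken over the 40 values of both lists, among 2756 candidates. The nearest to CNTN1 were MGST1, MBNL2 and KCND2, at 4.06, 4.08 and 4.24 points. MGST1 was 95.9% covered in each list, so it lacked the difference between states seen in CNTN1. The nearest to CNTNAP2 were JAK2, RNF128 and SATB1, at 3.42, 3.44 and 4.15 points. All 3 were 100% covered in primed, so none shared the free 3′ end that CNTNAP2 had in both states. The nearest to CNTN5 was IL1RAPL2 at 0.607 points, after which 419 genes tied at 0.747 points. Among the tied genes were ABCA12 and ABCA9, each covered at 100% in both lists.

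Family members outside the 8 were not in LADs in either state. CNTN2, the contactin that pairs with CNTNAP2 beside the nodes, and CNTNAP1, the partner of CNTN1, are short genes of 35.3 kb on chromosome 1 (205042949 to 205078289) and 17.5 kb on chromosome 17 (42682531 to 42699993). Both were 0% covered in naive and 0% covered in primed, as were the 500 kb on each side of them. The nearest LAD to the start of CNTN2 was 1157 kb away in both lists. CNTNAP3, CNTNAP3B and CNTNAP3C lie in duplicated DNA on chromosome 9 near the centromere. CNTNAP3 was 4.48% covered in naive and 4.48% covered in primed, but by different windows. CNTNAP3B was covered at 29.3% in naive, as 7 single windows, and at 12.6% in primed, and CNTNAP3C, added after the files were seen, at 15.3% in naive and 0% in primed. After merging across breaks below 50 kb, CNTNAP3B was 83.5% covered in naive. These genes are near-identical copies and reads may match more than one of them. How such reads were counted was not given in the sources used here. The calls on these copies are therefore uncertain.

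The genes of proteins that work with the family were split between LADs and the rest of the genome. Of 24 partner genes listed for this comparison, 10 were in LADs in naive and 7 in primed, against 18.9% and 17.3% of all protein-coding genes. Another 14 were covered at 0% in both lists, and the median over all protein-coding genes was also 0% in each list. Of the 15 that are 100 kb or longer, 9 were in LADs in naive and 6 in primed, against 40.3% and 35.2% of all protein-coding genes of that length. Those in LADs of both states were CHL1, NRCAM, TNC, EPB41L2, SCN1A, SCN2A and ANK3. CHL1, a close relative of L1CAM that shares its LAD with CNTN6, the sodium channel genes SCN1A and SCN2A and the matrix gene TNC were covered at 100% in both. NRCAM, a node adhesion gene, was 100% covered in naive and 92.8% covered in primed, and ANK3, which encodes ankyrin G of the nodes, at 98.6% in each. EPB41L2, a cytoskeletal adaptor gene, was 89.6% covered in naive and 95.5% covered in primed.

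The 3 partner genes that differed by at least 10 points were all more covered in naive. EPB41L3, whose product ties Caspr proteins to the membrane skeleton of the axon, was 95.8% covered in naive and 0% covered in primed. TNR, which encodes tenascin R, a matrix ligand of CNTN1, was 92.2% covered in naive and 9.34% covered in primed. PTPRZ1, the gene of a receptor phosphatase that binds CNTN1, was 72.4% covered in naive and 0% covered in primed. Genes with such a difference toward naive made up 15% of all protein-coding genes of 100 kb or longer, against 3 of 15 partner genes of that length, and 5.34% differed as much toward primed, against 0 of the 15. PTPRG, the receptor of CNTN3 and its relatives, and APP, which binds CNTN4, were covered at 0% in both, as were the node genes NFASC and SCN8A and the potassium channel genes KCNA1 and KCNA2.

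**Figure D5:**
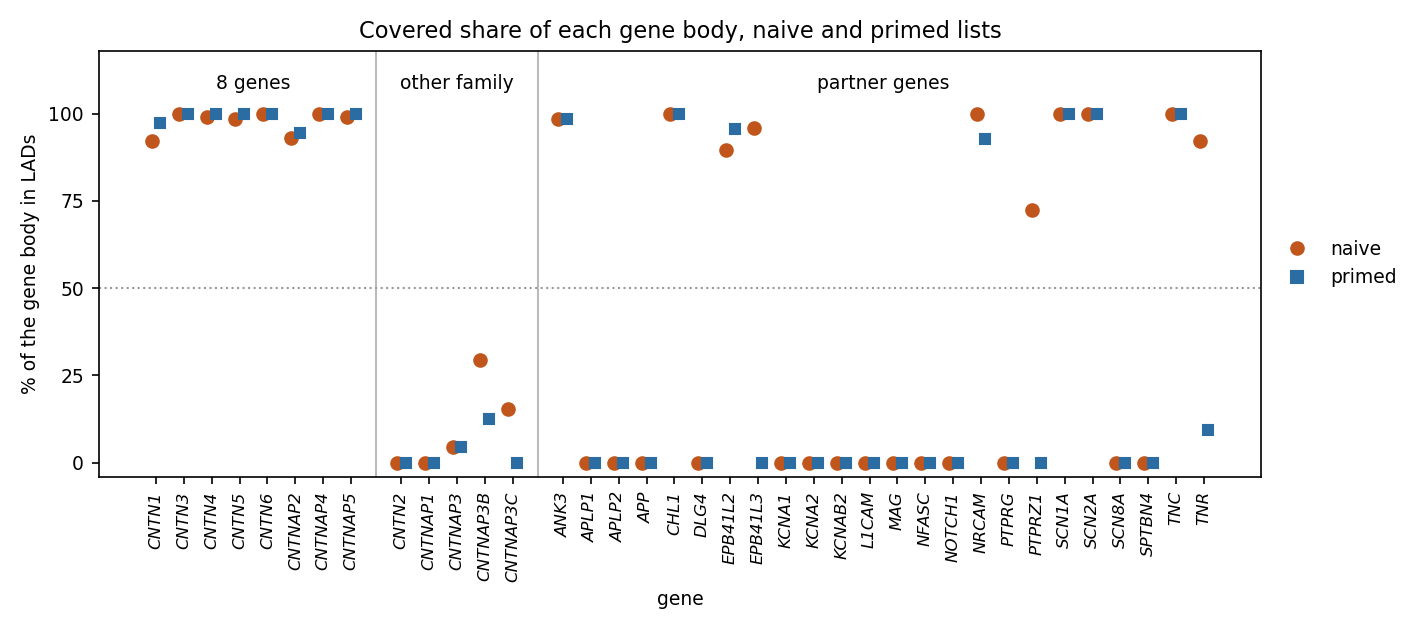
Percentage of each gene body in LADs, with naive as orange circles left of primed as blue squares. The 8 genes all sit above 92% in both lists, the 5 other family genes below 30%, and the 24 partner genes near 0% or above 72% in naive. The dotted line marks 50%.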

How the data were processed

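The lists hold LAD intervals of H9 cells, 1 for each state, as deposited; their start and end columns are positions in bases, with no score, ratio or count. Per the submitters' processing notes, BWA, SAMtools 1.10, SICER and the build hg38 were used. Step order, thresholds and how each state's 3 LMNB1-dam and 3 Dam-only libraries became 1 list: not given in the sources used here. The labels do not say whether these libraries came from separate cultures. A window may also be uncovered through low mappability or a lack of GATC sites, which was not tested.

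Gene bodies, strands and promoters came from RefSeq (GRCh38.p14), whose primary assembly hg38 shares. All 8 members matched by symbol. Coverage, pieces, gaps, flanks of 500 kb and distances were computed from the coordinates, 1-based. Strand was taken from the promoter table, which lists no start for some genes. Exons were not available, so no gap is assigned to an exon or intron. A difference was counted from 10 points upward. Members, partner genes and rules were chosen with earlier results of these data known. The named genes are all members, the other family genes, partner genes in LADs or past 10 points, the nearest protein-coding neighbours (1 is not reported here), and the 3 nearest profiles of 3 members; PTPRG, APP, NFASC, SCN8A, KCNA1, KCNA2, LRRK2, PGR and TRPC6 were named after their values were seen. The alternatives merged LADs across breaks below 50 or 100 kb, dropped LADs shorter than 50 or 100 kb, combined the 2 steps, or changed the covered share, the start window or the flank. The functions were tested on simulated data. Python 3.11.15, numpy 2.4.6, pandas 2.3.3 and matplotlib 3.10.9 were used.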

Additional observations from a re-analysis of the deposited data

How the results depend on the processing

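No paired analysis was possible because each state has 1 list, in which the numbered libraries are not kept apart; for the same reason no library could be left out in turn. All 8 genes kept at least 50% coverage in both lists in all 5 settings that merged or dropped LADs, and at least 25%, 75% or 90% as deposited. The lowest share of any member was 66.4%, for CNTN1 in naive without LADs under 100 kb. Naive minus primed differences ran from -30.9 to 0 points over all alternatives. In the 6 genes that the primed list covered from end to end, a positive difference was not possible. The gap counts depend on the treatment of short breaks. After merging across breaks below 50 kb, members covered from end to end numbered 7 in naive, gaps 1 in naive and 0 in primed, and the median difference was 0. After merging across breaks below 100 kb, the values were 7, 0, 0 and 0, and the naive cover of the summed bodies was 98.5%. Without LADs under 50 kb there were 4 naive gaps and 1 primed gap, with 94.8% of the naive sum covered, and without LADs under 100 kb there were 3 and 1, with 94.3%. After joining below 50 kb and then leaving out LADs under 100 kb, the values were 7 genes, 0 gaps in each list and a median of 0. Median naive coverage after the members, 98% over 500 kb, was 100% in the 3 settings that joined LADs and over 200 kb. These shifts follow from the construction of the alternatives. CNTNAP3B was covered at 83.5% in naive once LADs were joined and at 0% without LADs under 50 kb. The settings for start sites and flanks that join or leave out LADs, and the genes of 250 kb or longer, were added after seeing the data.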

Other observations

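The nearest protein-coding neighbours of the 8 genes were in LADs in some cases and free of them in others. PDZRN3, a ubiquitin ligase gene 638 kb from the 3′ end of CNTN3, was 95.9% covered in naive and 43.3% covered in primed. CPHXL, a homeobox gene 551 kb before CNTNAP4, was 52.5% covered in naive and 100% covered in primed. ARHGAP42, 328 kb after CNTN5, was 86.1% covered in naive and 100% covered in primed. The PDZRN4 gene, 116 kb after CNTN1, had 100% in naive and 93.6% in primed, and MUC19, on the other side, 100% in each.

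CNTNAP5 stands far from other protein-coding genes on both sides, and CNTN5 on its 5′ side only. The nearest before CNTNAP5 was TSN at 2257 kb and the nearest after it GYPC, a red cell glycophorin gene, at 1735 kb. TSN was covered at 0% and GYPC at 100% in both lists. The nearest gene before CNTN5 was JRKL at 2627 kb, covered at 0% in both. FRG2C, 1050 kb before CNTN3, was also covered at 0% in both. LOC124903725, 629 kb after CNTNAP4, was covered at 100% in both.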
